A study of Homo sapiens with 9 samples.

Results

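The ADAM and ADAMTS genes described here encode 10 metalloproteases: the membrane-anchored ADAM8, ADAM9, ADAM10, ADAM12, ADAM15, ADAM17 and ADAM19, and the secreted ADAMTS1, ADAMTS6 and ADAMTS15. They were found by gene name among the 58735 genes of the count table, 1 row each, and all 10 passed the filter on low counts that left 16812 genes for testing. The members were chosen with their values in these same libraries already known. Their levels and differences are therefore given as a description, with no p-value, and the word called only says that edgeR's quasi-likelihood test over all tested genes gave a Benjamini-Hochberg adjusted p under 0.05.

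ADAM proteases sit in the cell membrane and cut other membrane proteins close to the surface, a process called shedding that frees growth factors, adhesion molecules and receptor ectodomains. ADAM17 is the main sheddase of several ligands of the epidermal growth factor receptor (EGFR), and ADAM10 cuts Notch receptors, cadherins and other ligands of the same receptor. ADAMTS proteases lack the membrane anchor, carry thrombospondin repeats and act on proteoglycans, fibrillins and other matrix proteins. In squamous carcinoma cells, EGFR ligand shedding is a known source of autocrine growth signals.

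RNA was measured by bulk sequencing in FaDu, an established human line of squamous carcinoma of the hypopharynx, in 3 groups of 3 biological replicates. The control group, NC_NC, is labelled wild type. KD_NC is labelled as knocked down for AMIGO2, a leucine-rich repeat protein of the cell surface, and KD_OE as knocked down for AMIGO2 and overexpressing CAPN2, the large subunit of the protease calpain-2. No drug treatment is given for any group, and the method of knockdown and overexpression is not given in the sources used here. All libraries come from 1 cell line, so the p-values printed for other genes measure the spread between these cultures. In bulk RNA, fewer cells expressing a gene and less RNA per cell cannot be told apart.

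Library totals ran from 15158607 to 19737562 counts, and 3 counts corresponded to between 0.149 and 0.203 CPM, counts scaled to the size of the library. AMIGO2 was not lower in the libraries labelled knockdown: it stood at 29.5, 26.1 and 27.2 CPM in NC_NC, 24.5, 31.3 and 27.3 CPM in KD_NC, and 42.8, 35.3 and 38.8 CPM in KD_OE. In KD_OE it was higher than in KD_NC by a log2 value of 0.49 (adjusted p = 0.0014, edgeR). Against NC_NC the value was 0.50 (adjusted p = 0.00106, edgeR). CAPN2 stood at 447, 474 and 466 CPM in NC_NC, 395, 424 and 435 CPM in KD_NC, and 498, 498 and 500 CPM in KD_OE. It was higher in KD_OE than in KD_NC by a log2 value of 0.26 (adjusted p = 0.012, edgeR), a call lost without KD_OE replicate 1 (0.23) and with no filter on low counts (0.22). Between KD_OE and NC_NC the value was 0.11 (adjusted p = 0.254, edgeR), and it was called with upper-quartile factors (0.21) and with the compared groups only (0.12). The group names below are therefore the labels of the libraries and no statement that AMIGO2 was lowered or CAPN2 strongly raised. The KD_NC replicates were the least alike, with a chi-square per gene between libraries of 20.9 to 21.5, against 2.69 to 5.04 within NC_NC and 3.01 to 7.52 within KD_OE. All 10 squamous epithelial markers were detected. Their summed level was 8126 to 8636 CPM in NC_NC, 4277 to 5383 CPM in KD_NC and 4791 to 5391 CPM in KD_OE. Much of the difference was KRT5, at mean levels of 4437, 1207 and 1616 CPM in that order. In KD_NC against NC_NC, 7 of the 10 were called lower, CDH1 was called higher and 2 were not called. Over all tested genes, 18.5% were called lower and 16.0% higher. Mitochondrial ribosomal RNA took 0.537% to 0.583% of counts in NC_NC, 0.877% to 1.09% in KD_NC and 1.02% to 1.05% in KD_OE. The part of these library differences in the results was not tested.

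The catalytic centre is what the members share in sequence, and its coding stretch is shown for the 2 main sheddases, for the pair that differed most between KD_NC and NC_NC, and for 2 secreted members. In GENCODE v29 transcripts on GRCh38, a stretch of 33 coding bases (11 codons) encodes the zinc-binding motif. Capitals mark 5 codons: those of the zinc-binding histidines, of the catalytic glutamate, and of the residue at position 8 of the motif.
ADAM17: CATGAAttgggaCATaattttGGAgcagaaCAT
ADAM10: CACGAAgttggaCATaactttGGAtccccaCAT
ADAM12: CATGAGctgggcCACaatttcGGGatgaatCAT
ADAM19: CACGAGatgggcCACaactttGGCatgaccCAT
ADAMTS6: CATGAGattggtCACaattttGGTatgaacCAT
ADAMTS1: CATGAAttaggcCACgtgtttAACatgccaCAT

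The stretch lies at chr2:9510078-9510110 in exon 11 of 19 of ADAM17, at chr10:126094059-126094091 in exon 11 of 23 of ADAM12, and at chr5:157505734-157505766 in exon 11 of 22 of ADAM19, all on the minus strand. An intron splits it in ADAM10, where it runs from chr15:58633196-58633225 in exon 9 to chr15:58627881-58627883 in exon 10 of 16, on the minus strand. It is also split in ADAMTS6, between chr5:65329378-65329394 in exon 9 and chr5:65300116-65300131 in exon 10 of 25, and in ADAMTS1, between chr21:26841858-26841867 in exon 3 and chr21:26841143-26841165 in exon 4 of 9, both on the minus strand. The motif was searched in the longest coding transcript of each gene, with only glycine or asparagine allowed at position 8. It was found in all 10 members and in 30 of 45 protein-coding genes of the wider family. A gene with another residue there was counted as having no match. Position 8 is a glycine codon in 8 members and an asparagine codon in ADAMTS1 and ADAMTS15. Of the 9 members whose stretch was compared (ADAM9 was not), ADAM15 and ADAM8 were the most alike, at 30 of 33 identical bases (90.9%), while ADAM12 and ADAM19 shared 26 (78.8%) and ADAM10 and ADAM17 shared 25 (75.8%).

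Levels of different genes were compared per kilobase of exon, as RPKM (TMM-scaled CPM divided by exon length in kilobases). The order of the top members was the same in every group: ADAM15, ADAM8, ADAM9, ADAM10 and ADAM17. In NC_NC they stood at mean levels of 26.3, 18.2, 8.39, 7.18 and 5.73 RPKM, and the other members at no more than 0.568 RPKM. Neighbours whose library ranges overlapped in NC_NC were ADAM9 with ADAM10, and ADAM12 with ADAMTS15. In KD_NC they were ADAM15 with ADAM8, and ADAM19 with ADAMTS1. In KD_OE the top of the order drew together, with overlapping ranges from ADAM15 (15.6 RPKM) through ADAM8 (15.1 RPKM) and ADAM9 (14.4 RPKM) to ADAM10 (12.4 RPKM), and the low members also overlapped, from ADAMTS6 down to ADAMTS15.

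The summed level of the 10 genes was of like size in the 3 groups, while its make-up differed. The sum was 66.9 ± 0.679 RPKM (SD, n = 3) in NC_NC, 69.7 ± 3.85 in KD_NC and 70.0 ± 1.36 in KD_OE. The share of ADAM15 in it was 39.3% ± 1.57 in NC_NC, 30.1% ± 2.57 in KD_NC and 22.3% ± 0.736 in KD_OE. The share of ADAM17 was 8.57% ± 0.0631, 8.19% ± 0.717 and 15.6% ± 0.037 in the same order. ADAM10 went from 10.7% ± 0.815 to 13.7% ± 2.11 and 17.7% ± 1.07, and ADAM9 from 12.5% ± 1.08 to 17.0% ± 1.87 and 20.5% ± 1.68. ADAM12 and ADAM19 together remained small, with mean shares of 2.35% and 1.54% in KD_NC, where each was highest.

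**Figure D1:**
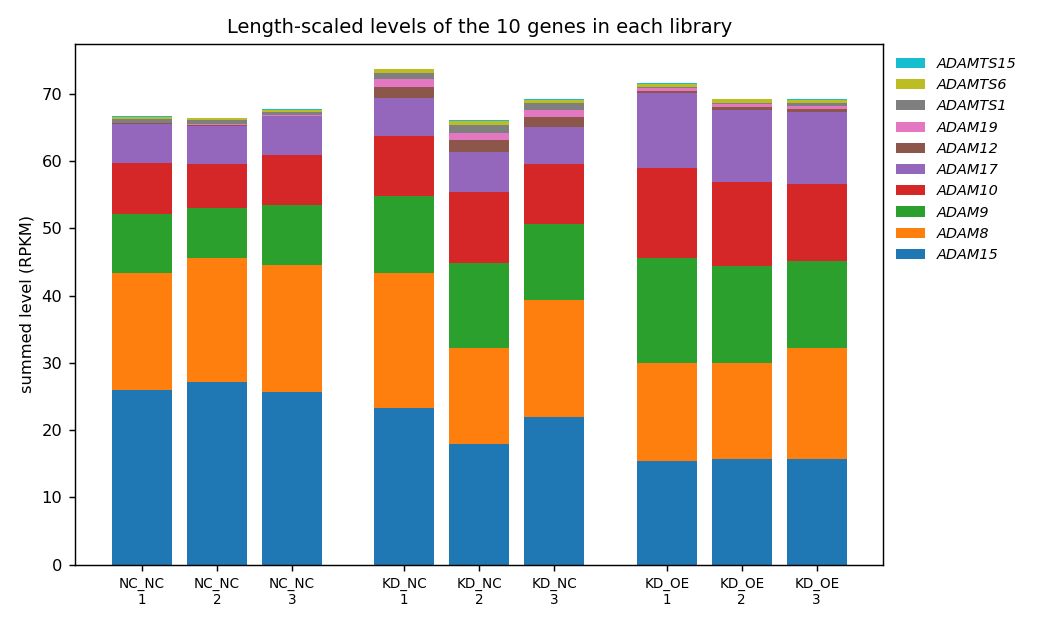
Stacked levels of the 10 genes in each of the 9 libraries (vertical axis, RPKM; bars grouped by NC_NC, KD_NC and KD_OE with the replicate number below). The bars are of like height, while the ADAM15 segment is smaller and the ADAM9, ADAM10 and ADAM17 segments are larger in KD_OE than in NC_NC.

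In the libraries labelled AMIGO2 knockdown against control, the low-level members ADAM12 and ADAM19 showed the largest differences of the 10, at 9.97-fold and 32.2-fold higher. ADAM9, ADAM10, ADAMTS1 and ADAMTS6 were also higher, between 1.32-fold and 1.82-fold, ADAM15 was 1.25-fold lower, and ADAM8, ADAM17 and ADAMTS15 were not called. So 6 of 10 members were called higher, where 16.0% of all tested genes were, and 1 was called lower, where 18.5% were. The groups' ranges stood apart for 7 members, against 44.7% of all tested genes. The median log2 difference was 0.64 over the members and -0.015 over all tested genes. Nothing is read from these counts, because the same values were known when the members were chosen.

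Between KD_OE and KD_NC, which by their labels differ in CAPN2, the sheddase ADAM17 was 1.91-fold higher. ADAM10 (1.31-fold) and ADAM9 (1.22-fold) were also higher, while ADAM12 (4.42-fold), ADAMTS1 (4.66-fold), ADAM19 (2.32-fold) and ADAM15 (1.35-fold) were lower. That makes 3 members called higher, where 23.7% of all tested genes were, and 4 called lower, where 25.6% were. The groups did not overlap for 7 members, against 54.0% of tested genes, and the median log2 difference was -0.31 against 0.009 over all tested genes. This comparison shares the KD_NC libraries with the one before it, so a member's values in the 2 comparisons are not independent of each other. Of the 10, ADAM12, ADAM19 and ADAMTS1 were called in both with opposite signs, and ADAM9, ADAM10 and ADAM15 in both with the same sign.

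Between KD_OE and NC_NC, which by their labels differ in both genes, ADAM9, ADAM10, ADAM12, ADAM17, ADAM19 and ADAMTS6 were higher and ADAM8, ADAM15 and ADAMTS1 were lower. These are 6 members called higher, where 27.9% of all tested genes were, and 3 called lower, where 28.4% were. The groups did not overlap for 9 members, against 66.9% of tested genes. The median log2 difference was 0.75 over the members and 0.023 over all tested genes.

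**Figure D2:**
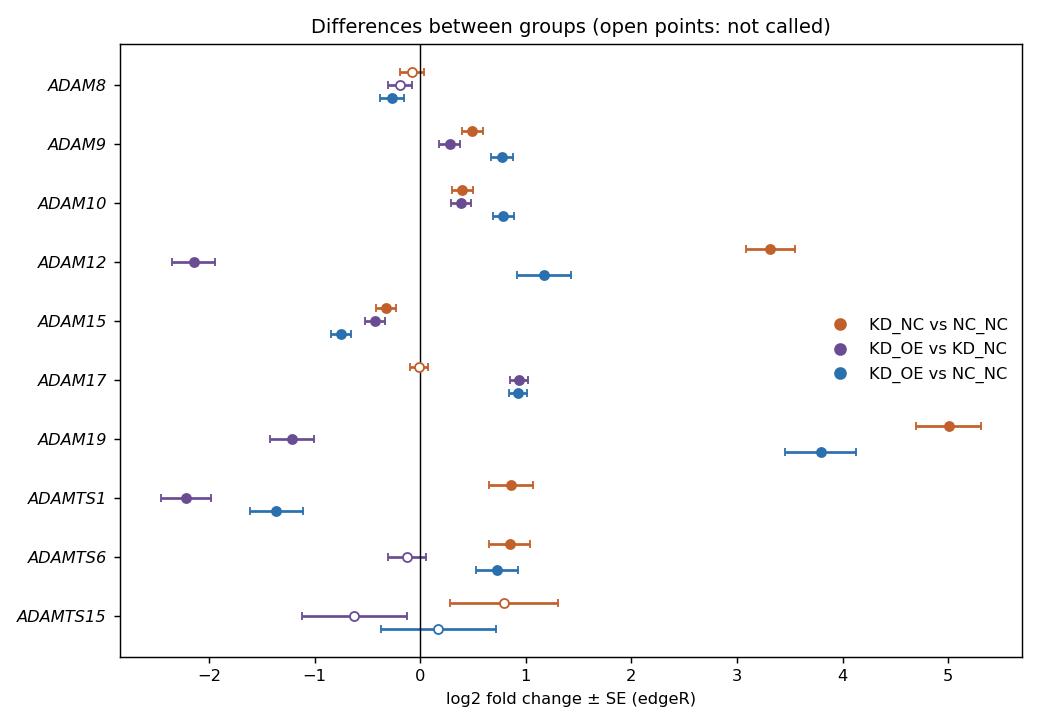
Log2 fold change with its standard error (horizontal axis) of each of the 10 genes in 3 comparisons of 3 libraries with 3; open points were not called. ADAM12 and ADAM19 lie far to the right for KD_NC against NC_NC and to the left for KD_OE against KD_NC, and ADAM17 moves in both comparisons that involve KD_OE.

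ADAM17 (ENSG00000151694, chromosome 2, 9488486 to 9556732, minus strand), also known as TACE for its release of tumour necrosis factor, stood at 61.9, 60.8 and 62.3 CPM in NC_NC. It stood at 60.2, 63.8 and 59.5 CPM in KD_NC and at 120, 116 and 116 CPM in KD_OE. All 3 KD_OE libraries lay far above the other 6, which overlapped. The log2 difference was -0.01 ± 0.08 (SE) between KD_NC and NC_NC, with a 95% interval from -0.19 to 0.17, and 0.94 ± 0.08 between KD_OE and KD_NC. Its exons share 1323 bases (12.3% of their length) with IAH1 on the opposite strand, whose reads cannot be told apart there, and IAH1 had 27.8% of the counts of ADAM17. IAH1 differed the other way between KD_OE and KD_NC, by a log2 value of -0.41 (adjusted p = 0.0197, edgeR).

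ADAM10 (ENSG00000137845, chromosome 15, 58588807 to 58749978, minus strand), the other major sheddase, stood at 123, 105 and 120 CPM in NC_NC, 144, 171 and 144 CPM in KD_NC, and 216, 200 and 185 CPM in KD_OE. The 3 groups did not overlap and stood in that order. Its log2 difference came to 0.40 ± 0.10 between KD_NC and NC_NC, 0.39 ± 0.10 between KD_OE and KD_NC, and 0.79 ± 0.10 between KD_OE and NC_NC. With each library corrected for GC content and length these were 0.18, 0.04 and 0.22, and the second was not called. The ratio of ADAM17 to ADAM10, both in RPKM, was 0.802 ± 0.0579 in NC_NC, 0.604 ± 0.0382 in KD_NC and 0.882 ± 0.0561 in KD_OE. The ratio was lower in every KD_NC library than in any other, and NC_NC and KD_OE overlapped in it.

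ADAM9 (ENSG00000168615, chromosome 8, plus strand), a sheddase with broad substrates, followed the order of ADAM10. It stood at 60.5, 51.8 and 61.6 CPM in NC_NC, 79.1, 87.2 and 78.4 CPM in KD_NC, and 108, 100 and 89.1 CPM in KD_OE. The groups did not overlap, although the lowest KD_OE library and the highest KD_NC library were close. The log2 difference was 0.49 ± 0.10 between KD_NC and NC_NC and 0.28 ± 0.10 between KD_OE and KD_NC. Corrected for GC content and length, they were 0.29 and 0.18 and both were called. The call of the uncorrected last difference was lost without KD_NC replicate 1 (0.25) or 3 (0.24) without KD_OE replicate 1 (0.19) or 2 (0.27), and with no filter on low counts (0.24). The ratio of ADAM9 to ADAM10, in RPKM, was 1.17 ± 0.0256, 1.25 ± 0.0526 and 1.16 ± 0.0255 in NC_NC, KD_NC and KD_OE.

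ADAM15 (ENSG00000143537, chromosome 1, 155050566 to 155062775, plus strand), whose disintegrin domain holds an integrin-binding motif in human, was the highest member per length. It stood at 171, 179 and 169 CPM in NC_NC, 153, 118 and 144 CPM in KD_NC, and 101, 104 and 103 CPM in KD_OE. The groups did not overlap, and KD_NC replicate 2 was the lowest of its group. In log2 terms it differed by -0.32 ± 0.09 between KD_NC and NC_NC, -0.43 ± 0.09 between KD_OE and KD_NC, and -0.75 ± 0.09 between KD_OE and NC_NC. The call between KD_NC and NC_NC was lost without KD_NC replicate 2 (-0.19) and without NC_NC replicate 2 (-0.30), which left 0 members called lower, and with GC content and length corrected (-0.05).

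ADAM8 (ENSG00000151651, chromosome 10, 133262403 to 133276868, minus strand), best known from leukocytes and also made by carcinoma cells, stood at 83.1, 87.6 and 90.1 CPM in NC_NC. It stood at 96.5, 68.0 and 83.2 CPM in KD_NC and at 69.9, 68.0 and 79.2 CPM in KD_OE. KD_NC spread over the range of both other groups, with replicate 2 as the lowest. The log2 difference between KD_OE and NC_NC was -0.27 ± 0.11, a call lost under 12 of 18 alternative settings. Without KD_NC replicate 2, the difference between KD_OE and KD_NC was -0.35 and was called, where it was -0.19 ± 0.11 with all libraries.

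**Figure D3:**
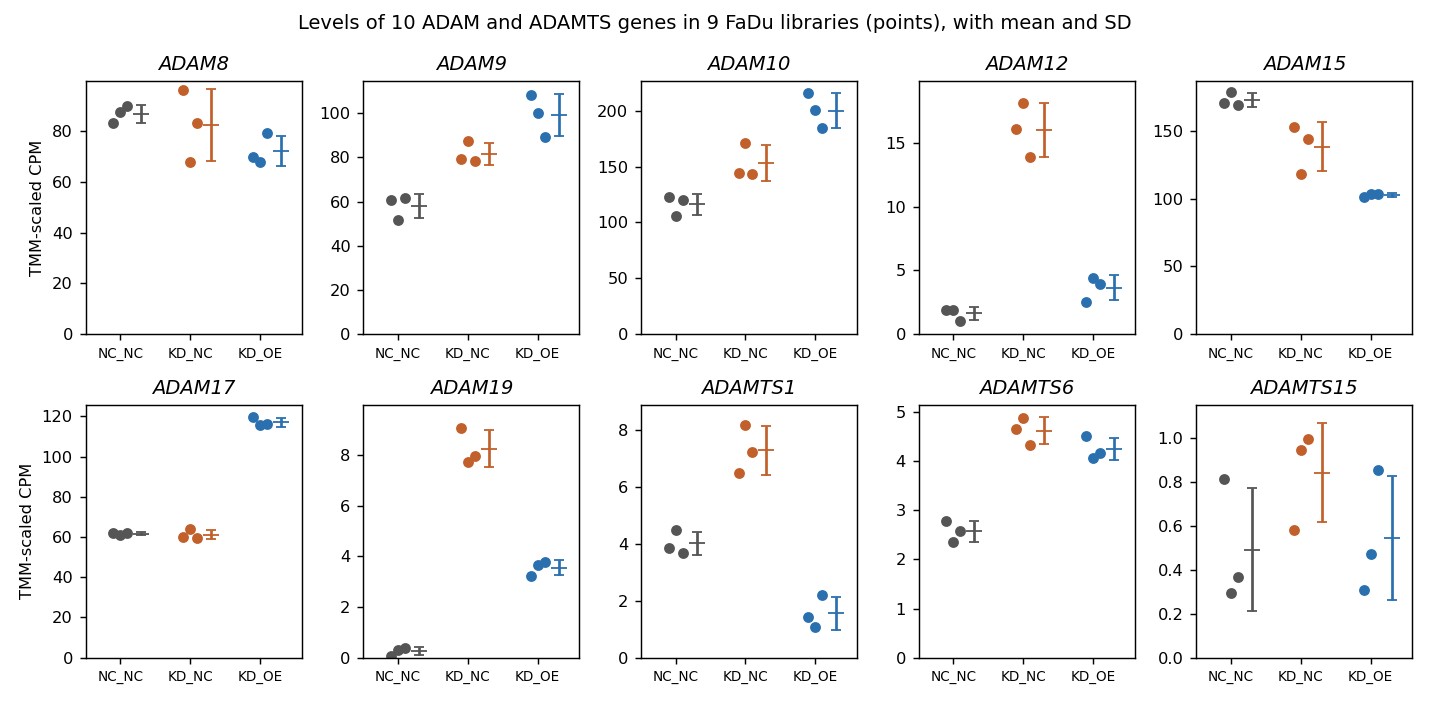
Level of each of the 10 genes in every library (points; vertical axis, TMM-scaled CPM from 0), with the group mean and SD beside them (n = 3). ADAM12 and ADAM19 peak in KD_NC, ADAM17 is higher in the KD_OE libraries than in the other 6, and ADAM9 and ADAM10 step up from group to group as ADAM15 steps down.

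ADAM12 (ENSG00000148848, chromosome 10, 126012381 to 126388455, minus strand), a protease of mesenchymal and placental cells that is also found in carcinomas, stood at 1.89, 1.89 and 1.05 CPM in NC_NC. It stood at 16.1, 18.1 and 13.9 CPM in KD_NC and at 2.53, 4.43 and 3.92 CPM in KD_OE. No groups overlapped, and every KD_OE library lay between control and KD_NC. On the log2 scale ADAM12 differed by 3.32 ± 0.23 between KD_NC and NC_NC, -2.14 ± 0.20 between KD_OE and KD_NC, and 1.17 ± 0.26 between KD_OE and NC_NC.

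ADAM19 (ENSG00000135074, chromosome 5, 157395534 to 157575775, minus strand), a close relative of ADAM12 known for the release of neuregulins, had 1, 5 and 6 counts in the NC_NC libraries. KD_NC had 156, 155 and 136 counts and KD_OE 52, 62 and 62 counts. These are 0.0676, 0.295 and 0.369 CPM in NC_NC, 9.09, 7.71 and 7.97 CPM in KD_NC, and 3.21, 3.66 and 3.79 CPM in KD_OE, with no overlap between groups. On the log2 scale ADAM19 differed by 5.01 ± 0.31 between KD_NC and NC_NC, -1.21 ± 0.20 between KD_OE and KD_NC, and 3.79 ± 0.34 between KD_OE and NC_NC. With so few control counts the size of the folds against control is imprecise. CYFIP2, on the opposite strand, shares 62 exon bases (0.805% of the exon length of ADAM19) and had 205% of the counts of ADAM19. CYFIP2 was higher in KD_NC than in NC_NC by a log2 value of 1.21 (adjusted p = 5.06e-05, edgeR). Its log2 value was 1.01 between KD_OE and NC_NC and -0.20 (not called) between KD_OE and KD_NC. The part of its reads in the counts of ADAM19 was not tested.

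The level of ADAM19 had the widest range over the groups, and other genes were ranked by how closely their centred log2 CPM followed it over the 9 libraries. The nearest of the protein-coding genes with a mean of at least 5 CPM were IL24 (root mean square difference 0.70), LOX (0.78), IL1RL1 (1.00), IER3IP1 (1.07) and DIO2 (1.08), all in log2 units. LOX, an enzyme that crosslinks collagen and elastin, stood at mean levels of 1.74, 17.3 and 6.14 CPM in NC_NC, KD_NC and KD_OE. IL24, a cytokine, stood at 1.83, 23.8 and 7.94 CPM. IER3IP1, at 4.39, 21.1 and 25.7 CPM, was highest in KD_OE, where ADAM19 was lower than in KD_NC. The few NC_NC counts of ADAM19 limit these distances. ADAM12 was the nearest other member, at 1.10.

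The 7 endothelial markers summed to 18.3 to 22.7 CPM in NC_NC, 43.7 to 50.2 CPM in KD_NC and 16.3 to 17.2 CPM in KD_OE. Most of that was CDH5, which encodes VE-cadherin (17.0, 15.3 and 12.2 CPM in NC_NC, then 46.4, 40.7 and 42.5, then 13.7, 14.1 and 13.2), while KDR was at 0 in every library. Of the 2 tested, CDH5 was called higher in KD_NC than in NC_NC and VWF, which encodes von Willebrand factor, was called lower, at 2.74, 2.54 and 2.05 CPM against 5.48, 6.31 and 5.23 CPM (adjusted p = 0.000171, edgeR). The 9 fibroblast markers summed to 8.25 to 9.78 CPM in NC_NC, 11.1 to 14.2 CPM in KD_NC and 13.5 to 15.6 CPM in KD_OE, with LUM and PDGFRA at 0. Most of that was COL1A1, the only 1 tested, at mean levels of 8.98, 11.98 and 14.55 CPM. The 9 leukocyte markers summed to 16.4 to 21.0, 20.2 to 26.4 and 7.28 to 12.0 CPM, with MS4A1 at 0. Most of that was CD14, 1 of 2 tested, at mean levels of 15.98, 22.48 and 7.33 CPM. ITGAM, also tested, went the other way, at 1.84, 0.85 and 1.96 CPM. It was called lower in KD_NC than in NC_NC (-1.10 in log2) and higher in KD_OE than in KD_NC (1.18). The part of these markers in the members' values was not tested.

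The upstream sequences of ADAM12 and ADAM19 are shown because these 2 members had the largest differences between KD_NC and NC_NC. RefSeq promoter windows (GRCh38.p14, 250 bases before to 50 after the gene start) were matched for 7 of the 10 members, and 4 motifs were searched on both strands. The lines below give the 250 bases before the start, on the minus strand, at chr10:126388478-126388727 and chr5:157575776-157576025, and capitals mark GC boxes (GGGCGG or its reverse complement).
ADAM12: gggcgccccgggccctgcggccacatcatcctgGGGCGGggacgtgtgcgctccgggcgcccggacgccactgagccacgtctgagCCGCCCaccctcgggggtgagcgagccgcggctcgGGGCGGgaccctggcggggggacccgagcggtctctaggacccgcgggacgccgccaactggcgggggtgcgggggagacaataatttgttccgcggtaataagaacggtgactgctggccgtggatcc
ADAM19: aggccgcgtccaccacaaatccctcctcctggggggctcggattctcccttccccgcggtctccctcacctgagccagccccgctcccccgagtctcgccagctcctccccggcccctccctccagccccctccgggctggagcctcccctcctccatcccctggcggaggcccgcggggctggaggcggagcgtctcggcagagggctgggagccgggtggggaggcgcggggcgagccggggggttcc

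ADAM12 holds 3 GC boxes, at positions -217, -164 and -129 counted from the start, and the ADAM19 window holds none. A GC box was found in 5 of the 7 member promoters and in 45.0% of all 35116 promoters in the table. The AP-1 letters TGANTCA, found in 7.71% of all promoters, and the composite C/EBP-ATF letters TGATGNAA, found in 3.62%, were in none of the 7. The cAMP response element TGACGTCA, found in 1.85% of all promoters, was in ADAMTS6 alone, at position -7. These are matches of letters in one window per gene and say nothing of binding.

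ADAMTS1 (ENSG00000154734, chromosome 21, 26835747 to 26845409, minus strand), a secreted protease that cuts versican and other proteoglycans, stood at 3.86, 4.48 and 3.69 CPM in NC_NC. It stood at 6.47, 8.16 and 7.21 CPM in KD_NC and at 1.42, 1.06 and 2.20 CPM in KD_OE. The groups did not overlap, and KD_OE lay below control. In log2 terms ADAMTS1 differed by 0.86 ± 0.21 between KD_NC and NC_NC, -2.22 ± 0.24 between KD_OE and KD_NC, and -1.36 ± 0.25 between KD_OE and NC_NC.

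ADAMTS6 (ENSG00000049192, chromosome 5, 65148736 to 65481920, minus strand), linked to fibrillin microfibrils, stood at 2.77, 2.36 and 2.58 CPM in NC_NC, 4.66, 4.88 and 4.34 CPM in KD_NC, and 4.51, 4.08 and 4.16 CPM in KD_OE. KD_NC and KD_OE overlapped, and both lay above control. The log2 difference was 0.85 ± 0.20 between KD_NC and NC_NC and -0.12 ± 0.18 between KD_OE and KD_NC, with a 95% interval from -0.51 to 0.26. ADAMTS15 (ENSG00000166106, chromosome 11, 130448974 to 130476641, plus strand), another protease of proteoglycans, had 96 counts in all 9 libraries and stood between 0.295 and 0.996 CPM. Its groups overlapped in every comparison, and at this depth no difference was detectable.

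The members differ in GC content, and the fold changes of all genes were correlated with it, only weakly between KD_OE and KD_NC. Across 16802 genes, the Spearman correlation of the log2 fold change with the GC content of the longest transcript was -0.36 for KD_NC against NC_NC, -0.083 for KD_OE against KD_NC and -0.29 for KD_OE against NC_NC; genes share libraries and are no replicates. ADAM10 (38.3%), ADAM17 (38.5%) and ADAM9 (39.4%) lay below the lower quartile of tested genes (42.1%), and ADAM8 (63.8%), ADAM15 (63.9%) and ADAMTS15 (59.8%) above the upper quartile (56.0%). With each library corrected for GC content and length, ADAM17 was called lower in KD_NC than in NC_NC, at -0.23, and ADAM8 called higher, at 0.19. Between KD_OE and NC_NC, ADAM17 moved from 0.93 to 0.47, ADAM9 from 0.78 to 0.47 and ADAM15 from -0.75 to -0.51, and these kept their calls. ADAM8 in that comparison turned from -0.27 to 0.052 and was not called. ADAM12, ADAM19 and ADAMTS1 moved by less than their standard errors in all 3 comparisons. Between KD_OE and KD_NC, ADAM10 moved from 0.39 to 0.04, ADAM17 from 0.94 to 0.71, ADAM9 from 0.28 to 0.18 and ADAM15 from -0.43 to -0.46. The correction fits GC content and exon length together, and ADAM10 (16168 bases) and ADAM17 (10750 bases) have the longest exon length of the members. The parts of GC content and of length in these moves were not tested.

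**Figure D4:**
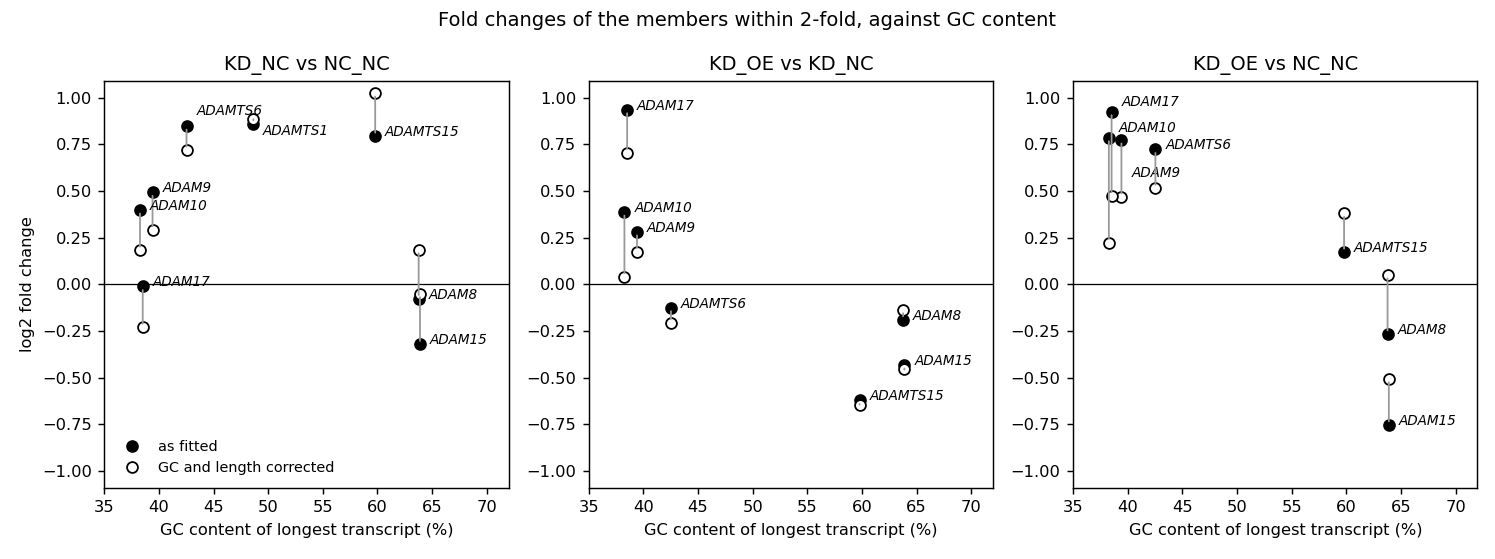
Log2 fold change against GC content of the longest transcript (%) for the members whose fold change stayed within 2-fold or close to it, before (filled) and after (open) correction for GC content and length, in 3 comparisons. ADAM12 and ADAM19 are off the scale in all panels and ADAMTS1 in those with KD_OE; the GC-poor ADAM9, ADAM10 and ADAM17 move down and the GC-rich ADAM8 and ADAM15 move up against control.

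Among 35 other protein-coding genes of the family, 12 passed the filter, and 6 of the other 23 had no count in any library. Of the 12, 2 were called higher and 1 lower in KD_NC against NC_NC, 4 higher and 2 lower in KD_OE against KD_NC, and 5 higher and 1 lower in KD_OE against NC_NC, with medians of 0.14, 0.44 and 0.82. Over all tested genes the shares called higher and lower were 16.0% and 18.5%, then 23.7% and 25.6%, then 27.9% and 28.4%, with medians of -0.015, 0.009 and 0.023, and several of these counts lie near those shares. ADAMTS13, the protease of von Willebrand factor, stood at 3.59, 2.36 and 3.20 CPM in NC_NC, 4.31, 1.94 and 2.05 CPM in KD_NC and 9.63, 8.15 and 12.2 CPM in KD_OE. It rose in KD_OE over KD_NC by 1.86 ± 0.26 in log2 (adjusted p = 8.53e-06, edgeR). ADAMTSL4, a protease-like protein without the catalytic domain, rose there by 1.31 ± 0.17 (adjusted p = 4.94e-06, edgeR). It shares exon bases with genes on the opposite strand that had 36.4% and 17.3% of its counts. ADAMTS17 rose by 1.20 ± 0.21 and ADAMTS20 by 0.66 ± 0.23, and ADAMTS3, a procollagen peptidase, fell by 0.78 ± 0.26. Without KD_OE replicate 1, ADAMTS20 (0.47), ADAMTS3 (-0.59) and ADAMTSL3 (-1.01) were not called, which left 3 genes called. ADAMTS20 was also not called without KD_NC replicate 3 (0.47), ADAMTS3 without KD_OE replicate 3 (-0.75), and ADAMTSL3 without any 1 of KD_NC replicates 1 and 3 and KD_OE replicates 2 and 3 (-1.35 to -1.09).

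In KD_NC against NC_NC, ADAMTS16 rose by 1.39 ± 0.31 (adjusted p = 0.00198, edgeR). ADAMTSL3 stood at 0.0676, 0.413 and 0.554 CPM in NC_NC, 1.75, 1.34 and 1.41 CPM in KD_NC and 0.432, 0.768 and 0.734 CPM in KD_OE. It rose by 2.07 ± 0.48 in KD_NC and fell by 1.20 ± 0.44 in KD_OE against KD_NC, on 130 counts in all. ADAMTSL4 fell in KD_NC by 0.54 ± 0.18, and with GC content and length corrected it stood at -0.27 and was not called. That call was also lost with DESeq2 (-0.53), no filter (-0.51), the compared groups only (-0.51), and without NC_NC replicate 1 (-0.56), 2 (-0.48) or 3 (-0.56) or KD_NC replicate 2 (-0.48). Against NC_NC, the 5 genes higher in KD_OE were ADAMTS13 (1.72), ADAMTS16 (1.38), ADAMTS20 (0.88), ADAMTSL4 (0.77) and ADAMTS17 (0.63), and ADAMTS3 was lower (-0.80), all in log2. The last was not called without NC_NC replicate 3 (-0.60) or KD_OE replicate 1 (-0.59). ADAM22, a neural gene of the family without the zinc motif, was called in no comparison (log2 between -0.21 and 0.15). With GC content and length corrected it was called lower in KD_OE than in KD_NC (-0.42) and NC_NC (-0.45). So corrected, ADAMTSL5 (0.69) and ADAMTS7 (1.28) were called higher in KD_OE than in NC_NC, where the main fit called neither. ADAMTSL5 was also called there without KD_OE replicate 1 (0.52), and ADAMTS7 with upper-quartile factors (1.12). ADAMTS7 was called between KD_OE and KD_NC with upper-quartile factors (1.08) and without KD_OE replicate 3 (1.39).

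Of the inhibitors of these proteases, TIMP1, TIMP2 and TIMP3 rose in KD_NC against NC_NC, 3 of 5 tested with 0 lower, where 16.0% of all tested genes were called higher and 18.5% lower. Between KD_OE and KD_NC 1 was higher and 2 were lower, and between KD_OE and NC_NC 2 were higher and 1 lower, with medians of 0.65, 0.47 and 0.57. Of all tested genes 23.7% were higher and 25.6% lower in the former and 27.9% and 28.4% in the latter. TIMP2 stood at 4.94, 5.95 and 5.11 CPM in NC_NC, 15.3, 16.4 and 18.0 CPM in KD_NC and 4.44, 3.90 and 3.98 CPM in KD_OE. It rose by 1.63 ± 0.15 in log2 (adjusted p = 1.08e-07, edgeR) and fell by 2.01 ± 0.15 (adjusted p = 3.58e-09, edgeR). TIMP1 rose by 0.88 ± 0.12 and fell by 1.71 ± 0.13. TIMP3, known as the tissue inhibitor of ADAM17 and of several ADAMTS proteases, went the other way from them between KD_OE and KD_NC: it stood at 3.38, 3.42 and 3.57 CPM in NC_NC, 5.88, 4.33 and 6.15 CPM in KD_NC and 10.3, 9.21 and 9.06 CPM in KD_OE. It was higher in KD_OE than in NC_NC by 1.46 ± 0.18 (adjusted p = 1.12e-06, edgeR).

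Next come the genes that carry ADAM17 and ADAM10 through the cell or activate them, listed together with the adaptors SH3PXD2A and SH3PXD2B. Of 15 tested, 2 were called higher and 6 lower in KD_NC against NC_NC, 3 and 5 in KD_OE against KD_NC, and 2 and 7 in KD_OE against NC_NC, with a median log2 value between -0.25 and -0.18. Over all tested genes 16.0% and 18.5%, 23.7% and 25.6%, and 27.9% and 28.4% were called higher and lower, so some of these counts lie near the background. RHBDF1, an iRhom that escorts ADAM17, rose in KD_OE over NC_NC by 0.61 ± 0.10, whereas FRMD8, which stabilises the iRhom complex, fell by 0.66 ± 0.08 (adjusted p = 1.16e-06, edgeR). The related RHBDF2 was not called there (-0.23) and was called lower in KD_NC than in NC_NC (-0.34). Between KD_OE and NC_NC other genes of this list also differed. FURIN, which removes the inhibitory propeptide of ADAM proteases, fell by 0.78 ± 0.10 in KD_OE against NC_NC. PCSK5, another convertase, was higher in KD_NC than in NC_NC, at 14.0, 15.1 and 14.4 CPM against 7.71, 6.48 and 7.32 CPM (adjusted p = 3.23e-05, edgeR). TSPAN5, a tetraspanin partner of ADAM10, rose by 0.47 ± 0.11 in KD_NC and fell by 0.64 ± 0.11 in KD_OE against KD_NC. No other listed tetraspanin was called higher in KD_NC than in NC_NC, and TSPAN14 was called lower (-0.37). In KD_OE against NC_NC, TSPAN14 (-0.54), TSPAN15 (-0.56), TSPAN17 (-0.65) and TSPAN33 (-0.60) were called lower, and TSPAN5 and TSPAN10 were not called. SH3PXD2B, an adaptor of invasive protrusions whose relative SH3PXD2A binds ADAM proteases, fell by 1.61 ± 0.20 in KD_NC and rose by 1.62 ± 0.20 in KD_OE against KD_NC. Between KD_OE and NC_NC the log2 value of SH3PXD2B was 0.0069 (not called). SH3PXD2A itself fell by 0.59 ± 0.12 in KD_NC and rose by 0.38 ± 0.12 in KD_OE against KD_NC.

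A list of 8 shed ligands held 7 of EGFR and NRG1, a neuregulin that binds the related receptors ERBB3 and ERBB4. Of the 8, all tested, 6 were called higher and 0 lower in KD_NC against NC_NC. In KD_OE against KD_NC, 1 was higher and 3 were lower, and in KD_OE against NC_NC 4 were higher and 0 lower. The medians were 0.73, -0.22 and 0.46 in that order. Over all tested genes 16.0% were called higher and 18.5% lower in the first comparison, 23.7% and 25.6% in the second, and 27.9% and 28.4% in the third. NRG1 was called in none of them (log2 0.04, 0.01 and 0.04). AREG stood at 62.6, 64.4 and 61.8 CPM in NC_NC, 153, 162 and 206 CPM in KD_NC and 121, 111 and 116 CPM in KD_OE. It rose by 1.46 ± 0.10 in KD_NC (adjusted p = 5.05e-09, edgeR). HBEGF rose by 1.31 ± 0.11 in KD_NC and stayed high in KD_OE, at 43.1, 43.9 and 44.4 CPM against 18.0, 17.4 and 15.8 CPM in NC_NC. TGFA stood at 51.5, 55.1 and 53.1 CPM in NC_NC, 99.7, 106 and 118 CPM in KD_NC and 49.8, 51.4 and 48.8 CPM in KD_OE. It fell by 1.11 ± 0.09 in KD_OE against KD_NC. BTC, a ligand mainly shed by ADAM10, rose by 0.79 ± 0.15 in KD_OE against KD_NC. EPGN, called higher in both KD_NC and KD_OE against NC_NC, had 49 counts in all libraries.

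Of 35 other listed membrane proteins known to be shed, 30 were tested, and 12 were called higher and 8 lower in KD_NC against NC_NC, 12 and 8 in KD_OE against KD_NC, and 15 and 12 in KD_OE against NC_NC, with medians of 0.18, 0.11 and 0.21. The shares of all tested genes called higher and lower were 16.0% and 18.5%, 23.7% and 25.6%, and 27.9% and 28.4%, and the count lower in KD_OE against KD_NC lies near its share. The adhesion molecules CDH2 and L1CAM were higher in KD_OE than in NC_NC by 1.80 ± 0.16 and 2.13 ± 0.15, and CDH2 and the receptor kinase AXL were higher in KD_NC by 1.97 ± 0.16 and 1.35 ± 0.10. NOTCH1 and its ligand DLL1 fell by 0.88 ± 0.11 and 0.89 ± 0.09 in KD_NC. MICB, a stress ligand of natural killer cells, fell by 1.27 ± 0.10 and the hyaluronan receptor CD44 by 1.05 ± 0.08 in KD_OE against KD_NC. Of 19 listed ADAMTS substrates 12 were tested, with 3 called higher and 2 lower, 2 and 2, and 5 and 2 in the 3 comparisons and medians of 0.086, 0.13 and 0.10, read against those same shares of all genes. FN1, which encodes fibronectin, rose by 1.48 ± 0.14 in KD_NC against NC_NC, and THBS1, which encodes thrombospondin-1, fell by 0.68 ± 0.09 in KD_OE against KD_NC.

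**Figure D5:**
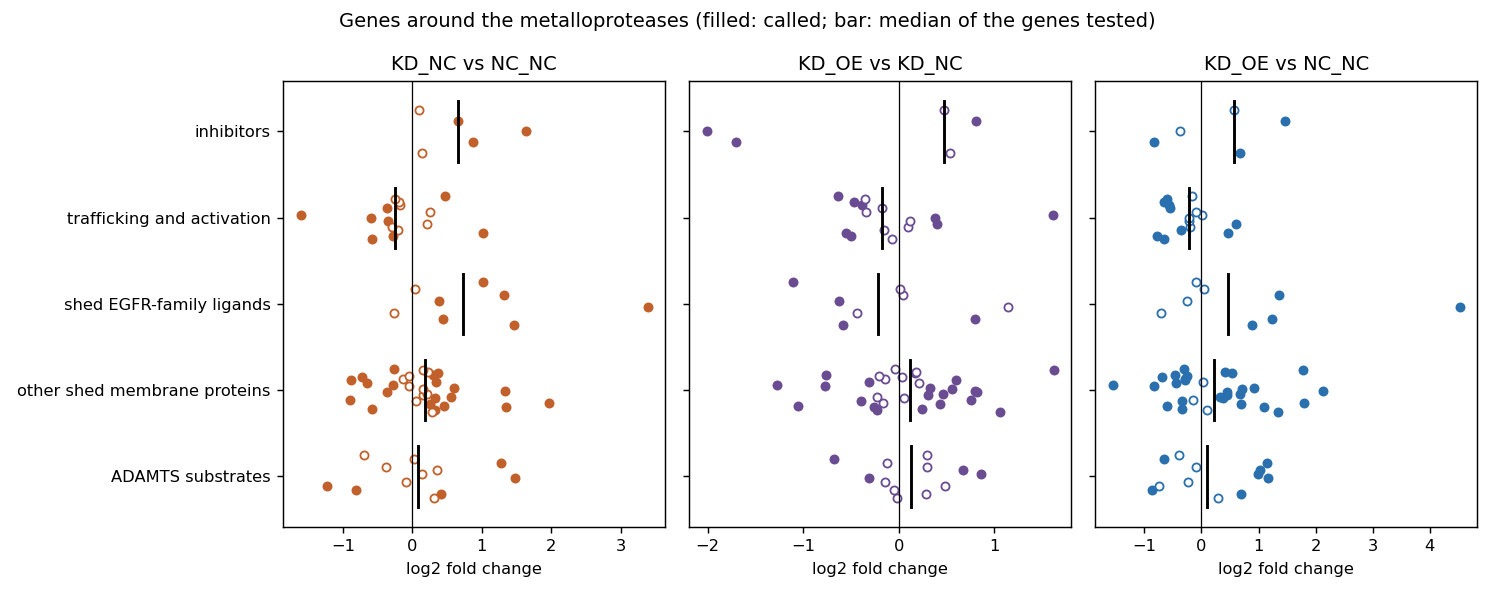
Log2 fold change of the tested genes in 5 lists around the metalloproteases (points, filled where called; black bar, median of the tested genes) in 3 comparisons. The shed ligands lie mostly to the right in KD_NC against NC_NC, and the inhibitors spread to both sides in KD_OE against KD_NC.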

How the data were processed

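The authors deposited 1 table of raw read counts per gene for the 9 libraries, as whole numbers. Program names come from the submitters' processing notes, which give them no role here: featureCounts (1.5.0-p3), HISAT2 (2.0.5) and StringTie (1.3.3b), with hg19 as the genome. Coordinates and lengths in the table equal GENCODE v29 on GRCh38 for 58735 of 58735 genes, so GRCh38 positions are given. Per the labels' protocols, libraries came from TRIzol RNA with a NEBNext Ultra kit, which does not mark strand. How strand and multiple matches were treated in counting is not given in the sources used.

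Counts were filtered with filterByExpr (minimum count 10, by group), scaled by TMM and fitted in edgeR 4.0.16 (R 4.3.3, limma 3.58.1) with 1 term per group over all 9 libraries, using robust quasi-likelihood and Benjamini-Hochberg adjustment over 16812 genes. The SE is derived from the log2 fold change and the F statistic. Intervals cover counting and replicate error only. The CPM of 3 counts is a conversion by the scaled library size and covers no error. The steps were tested on simulated counts. Alternatives were other scaling factors, DESeq2 1.42.0, other filters, compared groups only, a replicate block, correction for GC content and length, and leaving out each library. Members and lists were chosen with earlier results of these data known. Named were the members, AMIGO2, CAPN2, family genes that passed the filter, and per list and comparison up to 2 called genes in each direction with the largest change and a mean of at least 5 CPM. IAH1, CYFIP2 and other genes outside that rule were named after their values were seen.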

Additional observations from a re-analysis of the deposited data

How the results depend on the processing

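Of the 30 member values (10 genes, 3 comparisons), 23 were called, 19 of these kept their call and direction under all 18 alternatives, and 4 did not. Of 82 called values of other named genes, 72 kept theirs and 0 turned. Values below are log2 fold changes, and the cause was not tested. Between KD_NC and NC_NC, 0 members were called lower without NC_NC replicate 2 or KD_NC replicate 2 (0 to 1 over single libraries left out), and 3 other family genes were called between KD_OE and KD_NC without KD_OE replicate 1 (3 to 6). Upper-quartile factors moved the median of all genes between KD_OE and NC_NC to 0.126. No pairing by replicate number was seen: deviations of same-numbered libraries correlated at -0.111 to 0.063, and 3 of 18 library comparisons were highest at the own number. Differently numbered libraries of different groups correlated at -0.186 to 0.132. With 3 libraries a group this cannot show that the samples were unpaired. With the replicate block, 5376, 7912 and 9149 genes were called, against 5812, 8278 and 9468, and ADAM8 between KD_OE and NC_NC (-0.27) lost its call. It changed no other call among the members. Low depth limits ADAM19 in NC_NC and ADAMTS15.

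Corrected for GC content and length (in parentheses with the replicate block as well), ADAM8 turned to 0.186 (0.185) between KD_NC and NC_NC and to 0.0516 (0.0512) between KD_OE and NC_NC. AMIGO2 turned to -0.0897 (-0.0875), ADAM22 to -0.0247 (-0.023) and ADAMTS13 to 0.117 (0.0985) between KD_NC and NC_NC, and CAPN2 to -0.0144 (-0.0145) between KD_OE and NC_NC. ADAM17 between KD_NC and NC_NC was 0.0327 with upper-quartile factors, 0.0129 with no filter, 0.0167 with a filter of 1 CPM in 3 libraries and 0.0162 with the compared groups only, and for ADAMTS3 these were 0.0231, 0.0031, 0.0063 and 0.0058. ADAMTS16 between KD_OE and KD_NC was 0.0417 with upper-quartile factors, 0.0067 with the replicate block and 0.0166 with block and correction, and ADAM22 between KD_OE and NC_NC was 0.0355 with upper-quartile factors.

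Leaving out single libraries, uncalled values crossed 0. Between KD_NC and NC_NC they ran from -0.0616 to 0.0904 for AMIGO2, -0.201 to 0.0771 for ADAM8, -0.0226 to 0.0154 for ADAM17, -0.601 to 0.0996 for ADAMTS13, -0.181 to 0.185 for ADAMTS3 and -0.304 to 0.251 for ADAMTS7. Between KD_OE and KD_NC the range was -0.0556 to 0.358 for ADAMTSL5 and -0.173 to 0.162 for ADAMTS16, and between KD_OE and NC_NC it was -0.305 to 0.698 for ADAMTS15, -0.211 to 0.0491 for ADAM22 and -0.661 to 0.109 for ADAM20.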
